A study of Rattus norvegicus with 9 samples.

Results

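The 9 genes described here are transcription factors, repressors and kinases of the circadian clock, namely Arntl, Clock, Npas2, Nfil3, Cry1, Cry2, Rora, Csnk1d and Csnk1e. They were taken by gene symbol from the 37209 genes of the deposited count table, and all 9 passed the filter on low counts that left 16837 genes for testing. The genes had been selected on the values of the same groups that are compared here. Their differences between groups are therefore given as a description, without p-values.

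RNA came from the frontal cortex of 9 male Wistar rats, 14 weeks old, after behavioral tests. The 3 Control rats (A1, A2 and A6) were not separated from their mothers, and the 3 MS rats (B3, B4 and B6) underwent neonatal maternal separation for 4 h per day from postnatal day (PND) 1 to 21. The 3 MS+EA rats (C3, C10 and C16) underwent the same separation and then electroacupuncture at the acupoints GV20 and GV29 every other day from PND 61 to 81, while the Control and MS rats received anesthesia alone. A sham acupuncture group was not sequenced, and per the methods the Control rats came from other dams than the separated rats, which were allotted to MS or MS+EA at random. The dam of each rat is not given in the sources used here, so rats of a group, or of the MS and MS+EA groups, may share a dam. The hour at which the tissue was taken is not given in the sources used here, and any difference in that hour between groups cannot be told apart from the group.

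In the mammalian clock, BMAL1 (encoded by Arntl) pairs with CLOCK or its paralog NPAS2 on E-box sequences and switches on the Per and Cry genes, whose proteins return to block the pair. A second loop acts on Arntl itself: ROR proteins activate it and the REV-ERB proteins, encoded by Nr1d1 and Nr1d2, repress it through a shared element. NFIL3 represses genes that carry a D-box, which DBP activates, and the casein kinases CSNK1D and CSNK1E phosphorylate PER proteins and time their decay. In most tissues with a running clock, Arntl RNA peaks about when the RNA of Dbp, Per3 and Nr1d1 is low.

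The start-site sequences of clock genes are shown because some of them carry elements of these loops. RefSeq promoter windows (GRCr8 build) reach from 250 bases before to 50 bases after the start site and were found for 7 of the 9 genes. No window was found for Cry1 or Csnk1d, so these genes were not searched. The windows were searched on both strands for 6 motifs, namely the E-box CACGTG, its variant CACGTT, the ROR element as TAGGTCA or TGGGTCA, and the D-box as TTATGTAA or TTACGTAA. No searched motif contains another. Below are the 250 bases before the start site, 5′ to 3′ in the direction of the gene, with motifs in capitals. Arntl and Cry2 are the members with a match, Nfil3 is a member without one, and Ciart, an E-box gene that codes for a repressor of the BMAL1 pair, is shown for contrast. The regions are chr1:176766078-176766327 on the plus strand for Arntl (named Bmal1 in RefSeq), chr17:12432126-12432375 on the plus strand for Nfil3, chr3:98860438-98860687 on the minus strand for Cry2 and chr2:186112247-186112496 on the minus strand for Ciart.
Arntl: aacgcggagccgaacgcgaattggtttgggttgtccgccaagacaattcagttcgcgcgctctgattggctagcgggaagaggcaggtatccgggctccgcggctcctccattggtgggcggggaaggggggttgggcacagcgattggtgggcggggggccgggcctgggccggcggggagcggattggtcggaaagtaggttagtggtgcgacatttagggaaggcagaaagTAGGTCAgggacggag
Nfil3: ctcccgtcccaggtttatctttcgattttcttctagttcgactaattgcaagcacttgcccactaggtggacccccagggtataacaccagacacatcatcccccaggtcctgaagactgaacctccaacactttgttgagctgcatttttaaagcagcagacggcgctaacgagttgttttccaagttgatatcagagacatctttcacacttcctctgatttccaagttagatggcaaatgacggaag
Cry2: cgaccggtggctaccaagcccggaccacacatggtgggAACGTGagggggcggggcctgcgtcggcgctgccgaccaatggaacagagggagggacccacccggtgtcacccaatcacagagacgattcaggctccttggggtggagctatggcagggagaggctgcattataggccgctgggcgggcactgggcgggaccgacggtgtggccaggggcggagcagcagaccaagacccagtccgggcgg
Ciart: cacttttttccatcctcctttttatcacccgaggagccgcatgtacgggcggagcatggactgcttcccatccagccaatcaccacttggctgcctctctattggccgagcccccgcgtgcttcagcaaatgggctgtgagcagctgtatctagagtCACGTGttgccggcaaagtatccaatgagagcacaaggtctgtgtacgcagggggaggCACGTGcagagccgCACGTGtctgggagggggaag

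The Arntl window holds TAGGTCA, the element that ROR and REV-ERB proteins share, at position -16 from the start site. These letters occur in 2.63% of all 33469 promoter windows, and of the 7 members with a window Arntl alone held them. The other form, TGGGTCA, occurs in 4.09% of windows and in 0 of these members. CACGTG occurs in 6.42% of windows, in 0 of the 7 members with a window and in the windows of 5 genes of the E-box list used below, with 3 copies in Ciart at positions -93, -35 and -21. The variant CACGTT occurs in 4.83% of windows, and Cry2 carries it on the antisense strand at position -212. The D-box forms occur in 0.893% (TTATGTAA) and 0.120% (TTACGTAA) of windows and in 0 of these members. A match is a run of letters, not a measured binding site.

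Depth was lower in the MS+EA group. The deposited counts summed to between 16153292 and 19007907 reads per Control rat, between 16106381 and 17243320 per MS rat and between 12479905 and 14913736 per MS+EA rat. Levels are given below as counts per 1000000 reads (CPM) after TMM scaling, which corrects for depth and composition, and log2 fold changes are from an edgeR model of all 9 rats. Levels of different genes are not compared with each other, because counts grow with transcript length. The sum of 4 hypothalamic markers was 47.8 CPM in 1 MS rat, B4, and at most 5.78 CPM in each of the other 8 rats. For each of 5 markers of excitatory cortical neurons, at least 1 rat of each group had more than 3 reads.

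Arntl, the obligate partner of the clock's activating pair, was highest in MS and lowest in MS+EA. In Control its level was 47.6 CPM in A1, 42.7 CPM in A2 and 37.7 CPM in A6. In MS it was 53.4 CPM in B3, 56.1 CPM in B4 and 57.5 CPM in B6, and in MS+EA it was 39.2 CPM in C3, 29.2 CPM in C10 and 27.3 CPM in C16. Every MS rat lay above every Control and every MS+EA rat, and the MS+EA rat C3 lay above the Control rat A6, so these last groups overlapped. The group means were 42.7 ± 4.98 CPM in Control, 55.7 ± 2.07 CPM in MS and 31.9 ± 6.37 CPM in MS+EA (SD, n = 3 in each group). The log2 fold change was 0.38 ± 0.125 (SE) for MS against Control, -0.80 ± 0.128 for MS+EA against MS and -0.42 ± 0.128 for MS+EA against Control. Leaving out each rat in turn gave log2 fold changes of 0.30 to 0.47, -0.97 to -0.70 and -0.59 to -0.32 for these comparisons, with the sign kept in each. The values rest on 344 to 956 reads per rat. Across the tissue, lower RNA per cell and fewer cells of a type cannot be told apart, here or for any gene below.

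Clock, which encodes a partner of BMAL1, was higher in both separated groups than in Control. It stood at 156, 162 and 157 CPM in Control, at 183, 201 and 205 CPM in MS and at 174, 197 and 169 CPM in MS+EA. The MS and MS+EA rats overlapped, and each lay above all Control rats. The log2 fold change was 0.31 ± 0.0724 for MS against Control, -0.13 ± 0.0724 for MS+EA against MS and 0.18 ± 0.0726 for MS+EA against Control. Clock thus stayed above Control in the rats where Arntl was lowest.

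Npas2 encodes the alternative partner and was lower in both separated groups than in Control. Its level was 156, 168 and 167 CPM in Control, 153, 152 and 151 CPM in MS and 138, 149 and 131 CPM in MS+EA. The groups did not overlap, with Control above MS and MS above MS+EA, but the spacing was narrow, and when total counts replaced TMM the MS and MS+EA rats overlapped. The log2 fold changes were -0.11 ± 0.0660 for MS against Control, -0.13 ± 0.0663 for MS+EA against MS and -0.23 ± 0.0663 for MS+EA against Control. The ratio of Clock reads to Npas2 reads, which does not depend on the scaling, was 0.996, 0.960 and 0.943 in Control, 1.20, 1.32 and 1.36 in MS and 1.26, 1.32 and 1.30 in MS+EA. The ratio was higher in each of the 6 separated rats than in any Control rat, and did not separate MS from MS+EA. Clock and Npas2 are paralogs, and the treatment of reads with several locations is not given in the sources used here.

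**Figure D1:**
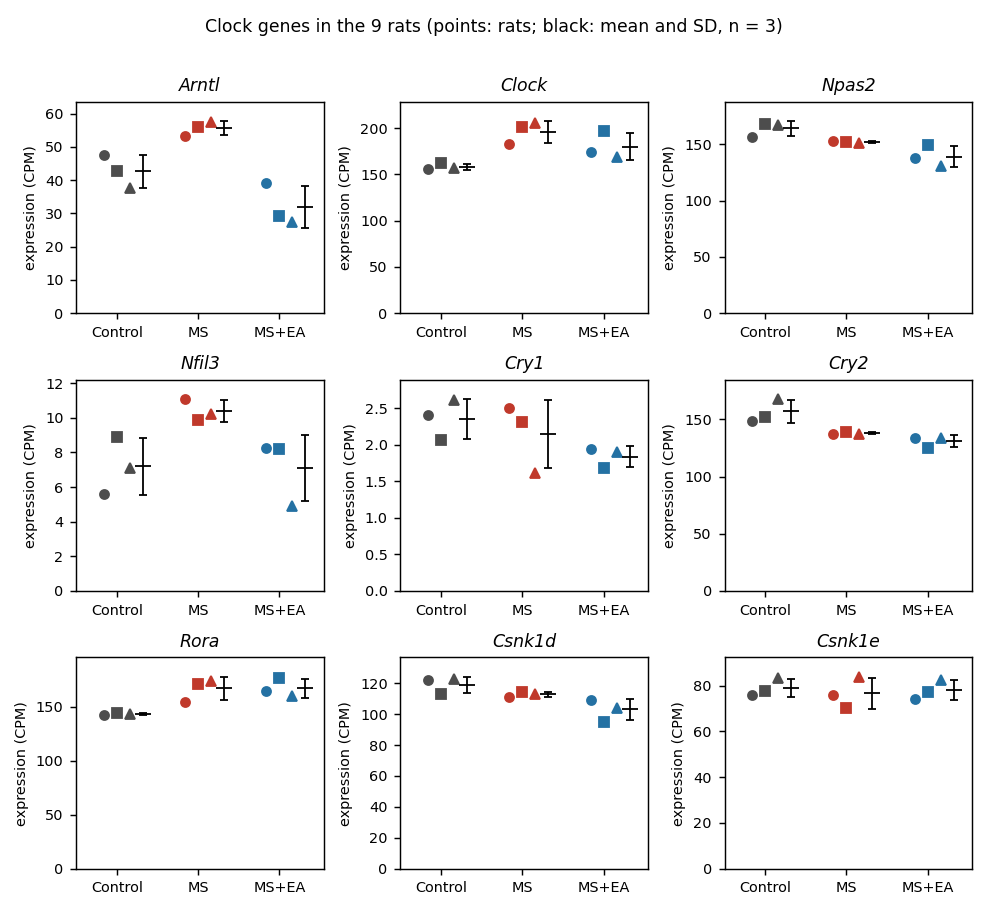
Expression of the 9 clock genes in CPM (vertical axis, from 0) in the Control, MS and MS+EA groups. Colored points are single rats, in the order A1, A2, A6, then B3, B4, B6, then C3, C10, C16, and black bars are means with SD (n = 3). For Arntl and Nfil3 every MS rat lies above the rats of both other groups, while the groups overlap throughout for Csnk1e.

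Nfil3, the D-box repressor, had the highest level in the MS rats as Arntl did. It was measured at 5.62, 8.90 and 7.09 CPM in Control, 11.1, 9.88 and 10.2 CPM in MS and 8.26, 8.18 and 4.93 CPM in MS+EA. All MS rats lay above all other rats, with A2 the nearest of these, and Control and MS+EA overlapped with means of 7.20 ± 1.64 and 7.12 ± 1.90 CPM (SD, n = 3). The log2 fold change was 0.53 ± 0.209 for MS against Control, -0.54 ± 0.211 for MS+EA against MS and -0.01 ± 0.215 for MS+EA against Control. The counts were 62 to 191 reads per rat. Nfil3 varied more within groups than Arntl did, with a biological coefficient of variation of 17.4% against 11.1%, and C3 and C10 had nearly equal Nfil3 levels where their Arntl levels differed.

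Rora encodes an activator of Arntl. Its level was 142, 144 and 143 CPM in Control, 154, 171 and 174 CPM in MS and 165, 177 and 160 CPM in MS+EA. As for Clock, all separated rats lay above all Control rats and the MS and MS+EA rats overlapped. The log2 fold change was 0.22 ± 0.0677 for MS against Control, 0.00 ± 0.0677 for MS+EA against MS and 0.22 ± 0.0678 for MS+EA against Control. Rora RNA was at equal mean levels, 167 ± 11.0 and 167 ± 8.80 CPM (SD, n = 3), in the groups between which Arntl differed most. The part of Rora in the level of Arntl was not tested.

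The cryptochromes, which block the BMAL1 pair, did not show the Arntl pattern. Cry2 was measured at 149, 152 and 168 CPM in Control, 137, 139 and 137 CPM in MS and 134, 125 and 134 CPM in MS+EA. Control lay above both other groups without overlap. MS lay above MS+EA by a narrow gap that closed when total counts replaced TMM. The log2 fold change was -0.19 ± 0.0656 for MS against Control, -0.07 ± 0.0660 for MS+EA against MS and -0.26 ± 0.0659 for MS+EA against Control.

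Cry1 was sparsely counted, with 24 to 45 reads per rat. Its level was 2.41, 2.07 and 2.61 CPM in Control, 2.51, 2.31 and 1.62 CPM in MS and 1.94, 1.68 and 1.91 CPM in MS+EA. The MS rats spanned nearly the whole range, and the MS+EA rats lay below all Control rats. The log2 fold changes of -0.14 ± 0.262, -0.22 ± 0.271 and -0.36 ± 0.269, in the order used above, were each within 1.5 SE of 0, so that a difference of this size was not resolved at this depth.

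Of the casein kinases, Csnk1d was lowest in MS+EA and Csnk1e did not separate the groups. Csnk1d was measured at 122, 113 and 123 CPM in Control, 111, 114 and 113 CPM in MS and 109, 95.0 and 104 CPM in MS+EA. The MS+EA rats lay below both other groups, and on total counts the MS+EA rats overlapped the MS rats. The MS rats overlapped Control, and on total counts they lay below all Control rats. The log2 fold change was -0.08 ± 0.0679 for MS against Control, -0.14 ± 0.0684 for MS+EA against MS and -0.22 ± 0.0683 for MS+EA against Control. Csnk1d overlaps Slc16a3, a lactate transporter gene, in the RefSeq annotation. Slc16a3 had 11 to 26 reads per rat. By the same annotation Cry1 overlaps the protein-coding gene LOC120093541, Clock, Npas2 and Rora overlap 2 lncRNA genes each and Cry2 overlaps 1, and since the strand setting of the counts is not given, reads of overlapping genes cannot be told apart.

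Csnk1e, the paralog, was measured at 75.7, 77.5 and 83.3 CPM in Control, 75.9, 70.4 and 83.9 CPM in MS and 74.2, 77.1 and 82.6 CPM in MS+EA. The 3 groups overlapped in every comparison, and the log2 fold changes were -0.04 ± 0.0799, -0.02 ± 0.0803 and 0.02 ± 0.0804 for MS against Control, MS+EA against Control and MS+EA against MS. Of the 9 members, Csnk1e had the smallest absolute log2 fold change of MS against Control.

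Read across the whole table, 4 of the 9 members (Arntl, Clock, Nfil3 and Rora) were higher in every MS rat than in every Control rat, where 10.03% of all tested genes were, and 2 (Npas2 and Cry2) were lower, where 7.53% were. Between MS+EA and MS, 0 members were higher without overlap and 5 lower (Arntl, Npas2, Nfil3, Cry2 and Csnk1d), against 8.27% and 9.60% of all genes. On total counts the 5 became 2, Arntl and Nfil3, and the 2 lower in MS than in Control became 3, with Csnk1d added. Between MS+EA and Control, 2 were higher (Clock and Rora) and 4 lower (Npas2, Cry1, Cry2 and Csnk1d), against 13.05% and 12.9% of all genes. The MS rats lay above both other groups for Arntl and Nfil3, as for 1.12% of all genes, where both comparisons use the same MS rats.

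With calls made by edgeR's quasi-likelihood test (adjusted p under 0.05, fold change over 1.5), 0 members were called in any of the 3 comparisons, against 0.0238% of all genes for MS against Control, 0.0178% for MS+EA against MS and 1.37% for MS+EA against Control. At an unadjusted p under 0.05, 5 members passed for MS against Control (4 higher, 1 lower), 2 for MS+EA against MS (both lower) and 6 for MS+EA against Control (2 higher, 4 lower), where 10.6%, 12.4% and 22.5% of all genes passed. DESeq2 called 1 of the 7 members to which it gave an adjusted p for MS+EA against MS, namely Arntl, where 0.179% of all genes with one were called. For MS against Control it called 0 of 9, where 0.428% of all genes were called, and for MS+EA against Control 0 of 8, where 2.17% were. Since the members were chosen by their values in these contrasts, nothing is read from these counts. The median log2 fold change of the members was -0.04, -0.13 and -0.22, where that of all tested genes was 0.00, 0.00 and 0.01.

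**Figure D2:**
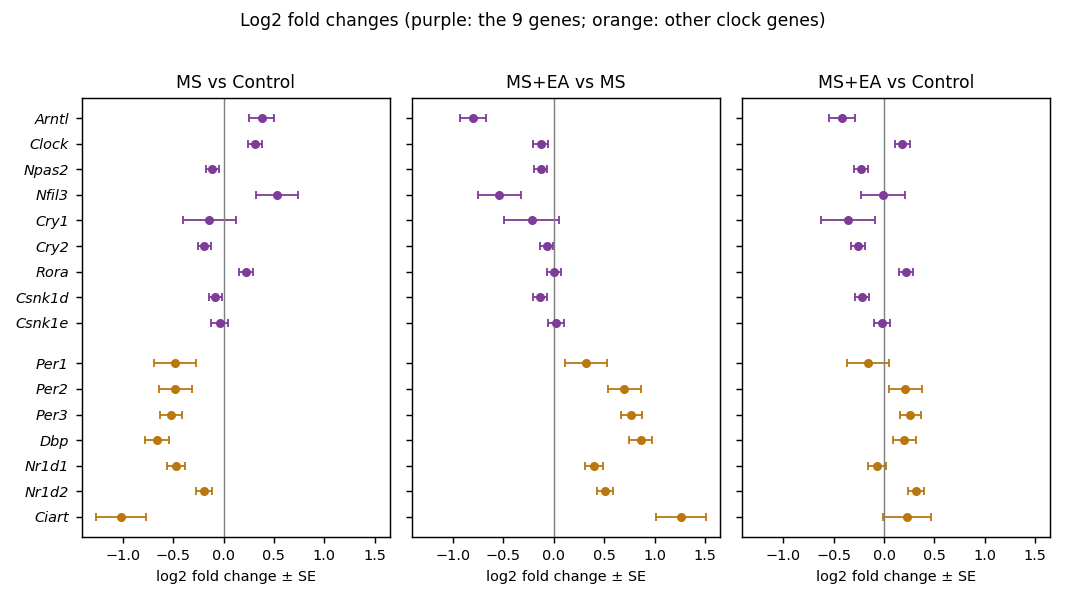
Log2 fold changes (horizontal axis) with SE for the 9 genes (purple) and 7 other clock genes (orange), for MS against Control, MS+EA against MS and MS+EA against Control. Arntl and Nfil3 lie to the right of 0 in the first panel and to the left in the second, and the orange genes lie on the other side of 0 in both.

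Several genes of the opposite arm of the clock were low where Arntl was high in the MS rats, and others changed little. A list of 11 E-box driven and output genes was used, of which 10 were tested and Hlf was not analysed here. Their log2 fold changes ran from -1.02 to -0.10 for MS against Control and from 0.00 to 1.26 for MS+EA against MS. All 10 were lower in MS than in Control, with a median log2 fold change of -0.48 where the median of all genes was 0.00, and 8 passed an unadjusted p under 0.05, as did 10.6% of all genes. By edgeR 0 of the 10 were called (0.0238% of all genes), and DESeq2 called Dbp and Ciart (0.428% of all genes). Between MS+EA and MS the median was 0.45, and 7 passed the unadjusted threshold, all upward, as did 12.4% of all genes in either direction. Here 2 of the 10 were called by edgeR (Per3 and Dbp; 0.0178% of all genes) and 3 of the 9 with an adjusted p by DESeq2 (Per2, Per3 and Dbp; 0.179% of all genes). Both comparisons use the same MS rats, and the list was drawn up with earlier results of these data known. Between MS+EA and Control 0 were called by either tool, 2 passed the unadjusted threshold (22.5% of all genes) and the median was 0.12.

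Dbp, the D-box activator, was measured at 97.6, 83.4 and 110 CPM in Control, 62.9, 60.0 and 60.8 CPM in MS and 99.9, 102 and 132 CPM in MS+EA. The MS rats lay below all others. Dbp rose in MS+EA against MS by a log2 fold change of 0.86 ± 0.115 (edgeR adjusted p = 0.0470, with all 3 MS+EA rats above all MS rats), and in MS against Control its log2 fold change was -0.66 ± 0.115 (edgeR adjusted p = 0.0578). Per3, a period gene, had means of 58.7 ± 6.98 CPM in Control, 41.0 ± 2.60 CPM in MS and 70.3 ± 8.38 CPM in MS+EA (SD, n = 3), and all MS rats lay below all others. It rose in MS+EA against MS by 0.77 ± 0.108 (edgeR adjusted p = 0.0470). Both calls are close to the threshold. Without the MS rat B3, B4 or B6, or the MS+EA rat C16, the edgeR adjusted p of Dbp was 0.0759, 0.155, 0.171 and 0.137, and that of Per3 was 0.0718, 0.182, 0.171 and 0.203. Without C3 the edgeR adjusted p of Per3 was 0.107, and Dbp stayed called. Over all alternatives the adjusted p lay between 1.7e-08 (DESeq2) and 0.171 for Dbp, and between 1.8e-07 (DESeq2) and 0.203 for Per3.

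The other genes of the list were not called by edgeR. Per2 had a mean of 80.7 ± 20.5 CPM in Control, 57.7 ± 2.33 CPM in MS and 93.6 ± 19.3 CPM in MS+EA (SD, n = 3). Its log2 fold change was 0.70 ± 0.165 for MS+EA against MS (edgeR adjusted p = 0.197). Nr1d1, which encodes REV-ERBα, had means of 85.8 ± 5.53, 61.9 ± 1.27 and 81.8 ± 10.8 CPM, and all MS rats were below all others. Ciart had the largest difference, with means of 10.8 ± 3.41, 5.27 ± 0.628 and 12.6 ± 3.49 CPM and a log2 fold change of -1.02 ± 0.250 for MS against Control (edgeR adjusted p = 0.158) and 1.26 ± 0.251 for MS+EA against MS (edgeR adjusted p = 0.184). In 5 genes of the list (Per2, Per3, Dbp, Nr1d1 and Ciart) all MS rats lay below both other groups, as in 1.13% of all genes. Per1 was less even, since the Control rat A6 had 170 CPM against 80.2 and 101 CPM in A1 and A2.

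Nr1d2, which encodes REV-ERBβ, a repressor of Arntl, was the list gene nearest to a mirror image of Arntl. It was measured at 137, 149 and 150 CPM in Control, 122, 122 and 138 CPM in MS and 165, 182 and 196 CPM in MS+EA. MS+EA lay above both other groups, and 1 MS rat (B6) overlapped Control. Its log2 fold change was 0.51 ± 0.0790 for MS+EA against MS (edgeR adjusted p = 0.0938) and 0.32 ± 0.0787 for MS+EA against Control (edgeR adjusted p = 0.0378), a difference below the fold change of 1.5 needed for a call. Without A1, A2, A6, C10 or C16 the last value lay between 0.0633 and 0.161 (edgeR adjusted p).

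**Figure D3:**
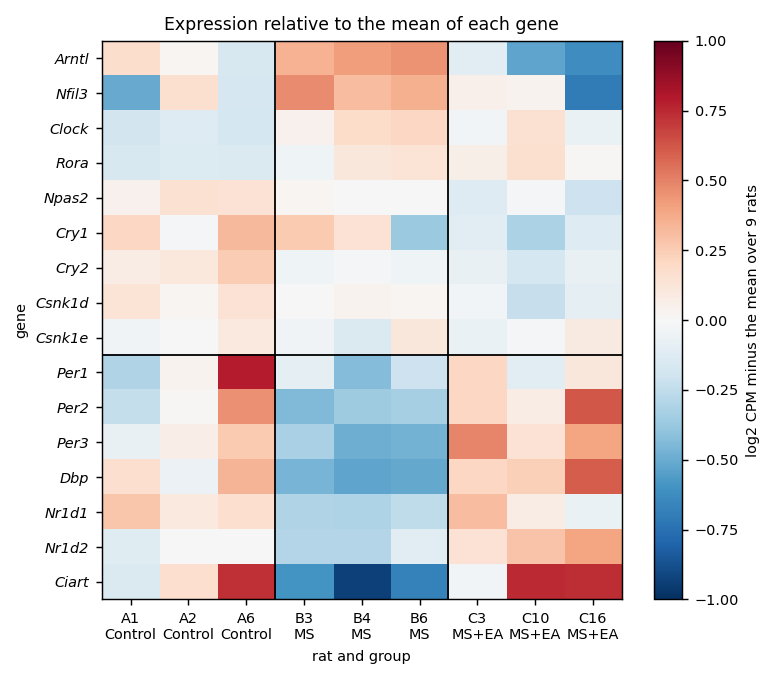
Log2 CPM of each gene minus its own mean over the 9 rats, from lower (blue) to higher (red), for the 9 genes above the black horizontal line and 7 other clock genes below it. Arntl and Nfil3 are red in the 3 MS columns where Per2, Per3, Dbp, Nr1d1, Nr1d2 and Ciart are blue.

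Ratios of reads give the balance between Arntl and these genes in each rat. Arntl reads per Per3 read were 0.909, 0.742 and 0.569 in Control, 1.21, 1.43 and 1.45 in MS and 0.507, 0.479 and 0.377 in MS+EA. The 3 groups did not overlap in this ratio. Arntl reads per Nr1d1 read were 0.519, 0.528 and 0.444 in Control, 0.871, 0.919 and 0.907 in MS and 0.419, 0.367 and 0.378 in MS+EA, again without overlap. Arntl reads per Dbp read were 0.488, 0.512 and 0.342 in Control, 0.849, 0.934 and 0.946 in MS and 0.392, 0.286 and 0.208 in MS+EA, where C3 overlapped Control. These ratios do not depend on depth or scaling, and no test was made on them because Arntl had been selected on these groups and the other genes were listed with their values known, which fixes the direction of the ratios.

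The order of rats within a group was then compared with that of Arntl, which uses no difference between groups. In Control, Arntl was highest in A1 and lowest in A6, and 6 of the 10 E-box genes (Per1, Per2, Per3, Nr1d2, Ciart and Bhlhe40) had exactly the reverse order, or 60.0%, where 17.7% of all tested genes did. Of the 10, 0 had the same order, where 16.9% of all tested genes did. In MS+EA, Arntl was highest in C3 and lowest in C16. There 4 of the 10 (Dbp, Tef, Nr1d2 and Bhlhe40) had the reverse order, or 40.0% against 14.7% of all genes. Nr1d1 had the same order as Arntl, as did 16.1% of all genes. In MS, where Arntl spanned only 53.4 to 57.5 CPM, 1 gene (Tef) had the reverse order, as did 2700 of 16836 other genes, and 2 (Per2 and Nr1d2) the same, as did 3206. Of the 8 other members, 2 had the reverse order in Control (Cry2 and Csnk1e) and 0 the same, 2 had the reverse order in MS (Npas2 and Cry1) and 2 the same (Clock and Rora), and in MS+EA 1 had the reverse order (Csnk1e) and 1 the same (Nfil3). Of the 19 other clock components described below, 3 had the reverse order in Control and 5 the same, 2 and 9 in MS, and 0 and 0 in MS+EA. These are counts over genes measured in the same 3 rats, which share libraries, and are given as a description.

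**Figure D4:**
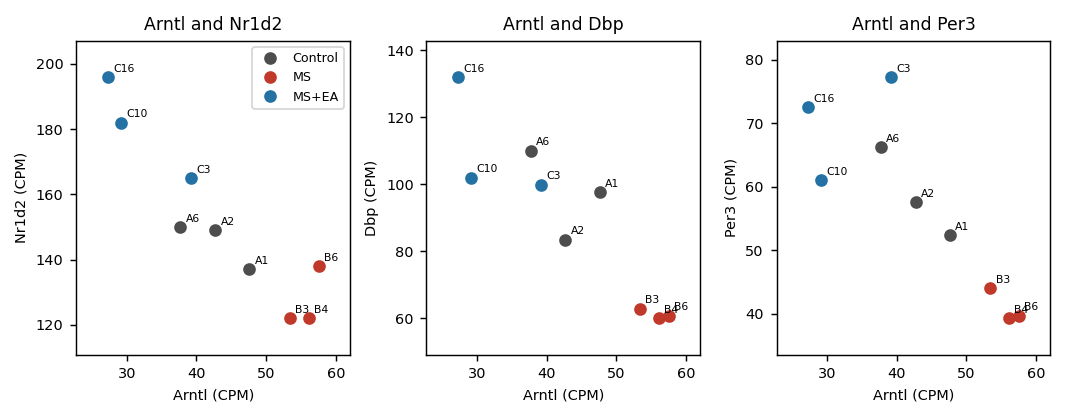
Arntl level (horizontal axis, CPM) against Nr1d2, Dbp and Per3 (vertical axes, CPM; the axes do not start at 0), with 1 point per rat colored by group and labelled with the rat. The MS rats lie at 53.4 to 57.5 CPM of Arntl and at the low end of Dbp and Per3.

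Of 15273 genes with a mean of at least 1 CPM, those most like Arntl over the 9 rats were sought by the root mean square (RMS) difference of log2 CPM after centering each gene. The nearest were Adtrp at 0.141, Parvb at 0.144, LOC102549615 at 0.156, Pih1d1 at 0.158 and Agt, the angiotensinogen gene, at 0.159. For scale, Arntl itself varied by an RMS of 0.368 around its mean, and the median gene by 0.174. Parvb was measured at 99.6, 80.8 and 83.7 CPM in Control, 109, 99.9 and 92.8 CPM in MS and 77.0, 62.4 and 60.6 CPM in MS+EA, so that its Control and MS rats overlapped. Nfil3, the closest of the other members, ranked 1151 at an RMS of 0.308.

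With the sign turned, the nearest genes were LOC102552397, a lncRNA, at 0.162, Tnfrsf11a at 0.169, Frg1 at 0.170, Nr1d2 at 0.172 and Asb11 at 0.175. Dbp followed in place 6 at 0.177, Per2 in place 13 at 0.193 and Per3 in place 18 at 0.205. In this list of mirror images 4 clock genes stood among the first 18 of 15273 genes. Nfil3 at place 1151 was the nearest of all these clock genes among those like Arntl. The ranking includes the differences between groups on which Arntl had been selected, and the clock genes were listed with earlier results known. Their places are therefore a description, and nothing is read from them.

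Of the other clock components and modifiers, 19 genes were tested. By edgeR 0 were called for MS against Control, MS+EA against MS and MS+EA against Control (0.0238%, 0.0178% and 1.37% of all genes). DESeq2 gave an adjusted p to 16 to 19 of them and also called 0 (0.428%, 0.179% and 2.17%). At an unadjusted p under 0.05 there was 1 (lower) for MS against Control. There were 0 for MS+EA against MS and 4 (2 higher, 2 lower) for MS+EA against Control. Of all genes, 10.6%, 12.4% and 22.5% passed. Their median log2 fold changes were 0.06, 0.00 and 0.10. Every MS rat lay above every Control rat for 4 of them and below for 1, against 10.03% and 7.53% of all genes. Every MS+EA rat lay below every MS rat for 4 and above for 0, against 9.60% and 8.27%. On total counts these became 1 and 1. Every MS+EA rat lay above every Control rat for 3 and below for 5, against 13.05% and 12.9%. On total counts these became 5 and 4. Usp2, which encodes a ubiquitin protease and is named after its values were seen, was lowest of the list for MS against Control at -0.34 ± 0.0807 (edgeR adjusted p = 0.146), with 87.4, 83.0 and 93.5 CPM in Control and 73.9, 64.7 and 69.5 CPM in MS. Arntl2, the paralog of Arntl, had 22 to 50 reads per rat and a log2 fold change of 0.57 ± 0.312 for MS+EA against MS (edgeR adjusted p = 0.470), the highest of the list. Timeless was highest of the list for MS against Control at 0.51 ± 0.261 (edgeR adjusted p = 0.515). The ROR gene Rorb was lowest for MS+EA against MS at -0.22 ± 0.151 (edgeR adjusted p = 0.578), and Csnk2b, a subunit of casein kinase 2, was lowest for MS+EA against Control at -0.28 ± 0.0925 (edgeR adjusted p = 0.0979).

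The summed levels of some cell type marker lists did not overlap between groups, while by edgeR 0 marker genes were called in any comparison. For scale, 10.03% of all tested genes lay above and 7.53% below without overlap for MS against Control. These shares were 8.27% and 9.60% for MS+EA against MS, and 13.05% and 12.9% for MS+EA against Control. The summed level of 4 endothelial markers was 105 to 116 CPM in MS and 83.9 to 100 CPM in Control, with 86.1 to 109 CPM in MS+EA. That of 4 general neuronal markers was 4396 to 4861 CPM in MS, 4109 to 4218 CPM in Control and 3712 to 4857 CPM in MS+EA. Hbb, the 1 gene with counts among 3 listed hemoglobin genes, was at 30.4 to 46.3 CPM in MS, 14.2 to 26.4 CPM in Control and 25.0 to 55.9 CPM in MS+EA. For 5 markers of excitatory cortical neurons the sum was 2017 to 2227 CPM in MS+EA, below 2338 to 2433 CPM in MS and 2399 to 2600 CPM in Control. For 6 markers of layers 6 and 6b it was 135 to 155 CPM in MS+EA, above 116 to 122 CPM in MS and overlapping 108 to 143 CPM in Control. The sums of the inhibitory neuron, astrocyte, oligodendrocyte, precursor, microglia, striatal and thalamic lists overlapped in all comparisons. The part of these differences in the values of the clock genes was not tested. For the 4 hypothalamic markers the MS+EA sums of 0.0795 to 1.47 CPM lay below those of MS, 2.22 to 47.8 CPM, with 2 of the 4 at or under 3 reads in every MS+EA rat. Without B4 the log2 fold change of Arntl was 0.38 for MS against Control and -0.79 for MS+EA against MS, and that of Nfil3 was 0.57 and -0.57. The MS rats other than B4 had hypothalamic sums of 2.22 and 3.50 CPM, still above every MS+EA rat. Leaving out B4 therefore does not remove this group difference, and its part in the values of Arntl and Nfil3 was not tested.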

How the data were processed

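Total RNA of the frontal cortex, depleted of rRNA, had been sequenced on an Illumina HiSeq X instrument in 9 rats, 3 per group. The authors filtered reads with FastQC, aligned them to Rnor_6.0 with HISAT2 (version 2.0.4 in the submitters' processing notes) and deposited whole-number read counts per gene without normalization. The counting program, its strand setting and its treatment of reads with several locations are not given in the sources used here.

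Groups were taken from the sample labels. Counts were analysed with edgeR 4.0.16 in R 4.3.3, with TMM scaling, the filterByExpr filter (minimum count 10) and a quasi-likelihood fit of group means over all 9 rats. The edgeR F test was adjusted by Benjamini-Hochberg over the 16837 genes tested, and calls needed a fold change over 1.5 and an adjusted p under 0.05. The EBSeq test of the study was not used here. The SE of a log2 fold change is its size divided by the square root of F, and the common biological coefficient of variation was 12.7%. The p-values weigh a group difference against the spread between rats within groups, which is estimated with information shared across genes. Rats may share dams.

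Likeness to Arntl was computed on log2 CPM with a prior count of 2. Promoters came from RefSeq tables of the GRCr8 build, which differs from the build of the counts, and overlaps between genes were taken from it by name. The clock genes, the lists of other clock genes and the marker lists were chosen with earlier results of these data known. Named outside the 9 genes are Per1, Per2, Per3, Dbp, Nr1d1, Nr1d2, Ciart, called list genes, the genes with the largest change in each direction and comparison over both lists together, Usp2 (chosen after its values were seen), and the 5 genes most like Arntl or its mirror image. Genes given only in counts are also named.

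Alternatives were RLE size factors or total counts, filters requiring 10 counts in every rat or 1 in any rat, a fit of the 6 rats compared, DESeq2 1.42.0, calls without the fold change threshold, and leaving out rats singly. Tables and plots used Python 3.11.15, pandas 2.3.3, numpy 2.4.6 and matplotlib 3.10.9.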

Additional observations from a re-analysis of the deposited data

How the results depend on the processing

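The log2 fold changes of the 9 genes moved by less than the spread between rats in 324 of 324 values under other settings, a bound that leaving out 1 of 3 rats can hardly exceed. Signs changed for Nfil3 in MS+EA against Control (4 settings, -0.16 to 0.19), Csnk1e (2 for MS against Control, 2 for MS+EA against MS and 3 for MS+EA against Control, -0.11 to 0.09), Rora in MS+EA against MS (2, -0.05 to 0.05) and Cry1 in MS against Control (1, -0.27 to 0.03). Of 396 values for the other clock genes, 373 kept their direction and side of the threshold, 8 gained it, 13 lost it and 2 changed sign, namely Per1 in MS+EA against Control (0.21 without the Control rat A6, -0.38 to 0.21 over the omitted rats) and Nr1d1 in the same comparison (0.01 without the MS+EA rat C16, -0.17 to 0.01 over the omitted rats). Arntl passed both thresholds in MS+EA against MS with DESeq2, with the filter of at least 1 count and without the MS+EA rat C3. It also passed in MS+EA against Control without C3. Since Arntl had been chosen by its values in these groups, nothing is read from where it passed. Counts over all genes depended on the settings. For MS against Control, 4 genes were called, and 207 with a filter of at least 1 count, 11 with only the 6 rats compared, 69 with DESeq2 and 2 to 22 when a rat was left out (22 without B3, 2 without A1 or A2). For MS+EA against MS, 3 were called, and 0 with at least 10 counts in every rat (1951 at an unadjusted p under 0.05 by edgeR; DESeq2 was not run with that filter), 72 with at least 1 count, 1 with the 6 rats, 13 with DESeq2 and 1 to 4 when a rat was left out, the lowest without C16. For MS+EA against Control, 230 were called, and 469 with at least 1 count, 910 without a fold change threshold and 71 to 261 when a rat was left out, 71 without the Control rat A1 and 121 without the MS+EA rat C10. The number of the 9 genes without overlap between MS+EA and MS was 5, and 2 on total counts. Between MS and Control it was 6, and 7 on total counts. The cause of these differences was not tested. No paired analysis was possible because any pair of groups shares fewer than 2 replicate numbers, on different animals. Precision is limited by 3 rats per group, with which an exact permutation test of a single value cannot go below 0.1, and by low counts for Cry1 and Arntl2.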
